A study of Homo sapiens with 14 samples.

Results

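The genes described here encode the proteins of the cytosolic ribosome. A gene was taken when its transcript cluster on the array carried exactly 1 gene symbol and that symbol was a ribosomal protein name (RPL or RPS with a number, or RPLP0, RPLP1, RPLP2 or RPSA), and where a gene had several such clusters the brightest over all arrays stood for it. This gave 55 genes on 62 clusters, of 67528 transcript clusters in all and of 22465 genes with a cluster of 1 symbol. They comprised 20 small subunit proteins, 27 large subunit proteins and 8 paralogs, which are second copies of a ribosomal protein gene (RPL3L, RPL7L1, RPL10L, RPL22L1, RPL26L1, RPL36AL, RPL39L and RPS27L). Of 87 genes listed for the ribosome and its paralogs, a further 21 lay on clusters with several symbols, 10 were not analysed here, and FAU was measured but lies outside the naming rule.

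Each cytosolic ribosome has a small subunit, which decodes the mRNA, and a large subunit, which joins the amino acids. Most of their proteins are needed in equal numbers. Most of their mRNAs begin with a short run of C and T bases called a 5′ terminal oligopyrimidine (TOP) tract. Through this tract the mTORC1 kinase pathway and the LARP1 protein set how well these mRNAs are translated and how stable they are. Growing cells, glioma cells among them, spend much of their transcription on these genes.

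All 14 arrays were of U87MG, an established human glioblastoma line. Untreated gliospheres (3 arrays) were cells sorted for the CD133 surface marker from that line and grown as spheres in serum-free medium with growth factors. BMT (3 arrays) and WJT (3 arrays) were such gliospheres kept for 7 days in conditioned medium (CM) of mesenchymal stem cells from bone marrow or from Wharton's jelly of the umbilical cord. Per the paper, CM was sphere medium first used by the stem cells and topped up with fresh medium, while untreated gliospheres had sphere medium alone. Factors released by the stem cells and their use of the medium thus cannot be told apart. Negative spheres (2 arrays) came from the cells without CD133. The cell line (3 arrays) was the parental culture, which the paper expanded as a monolayer in medium with serum. The last 2 kinds together formed the control group of 5 arrays. All groups derive from 1 cell line, CM came from 3 samples of each source, and the labels do not tie an array to a CM sample, so p-values measure the spread between these arrays. PROM1, which encodes CD133, and SOX2, MSI1 and GFAP lay between 3.45 and 3.78 log2 in the mean of every group, close to the median signal of the arrays (3.58 to 3.92), so the labelled CD133 difference was not seen in its mRNA. NES was between 4.32 and 4.68 and PAX6 between 5.48 and 6.10. The leukocyte markers PTPRC and CD3E were between 3.19 and 3.65. The stromal cell markers NT5E, ENG and PDGFRB were measured in every group including the cell line, and THY1 was between 3.24 and 3.48. In the treated gliospheres against untreated, 0 of these 4 passed a test (median differences 0.01 in BMT and 0.38 in WJT). The BMT median joins both signs, with NT5E and THY1 above gliospheres and ENG and PDGFRB below. Gliospheres 3 stood apart from gliospheres 1 and 2. PDGFRB was at 10.50 there against 5.79 and 6.60, ENG at 7.91 against 6.47 and 6.48, and NT5E at 16.94 against 18.27 and 18.29. The part of these markers in the results below was not tested. Arrays of BMT and of WJT correlated with others of their group at 0.990 or more over all clusters, while the lowest values within gliospheres and within the cell line were 0.964 and 0.928. Results are also given without gliospheres 3, cell line 2 and cell line 3 together, a set chosen after the data were seen. The correlations do not single these arrays out, since gliospheres 1 and cell line 1 reached equally low values, and without them the cell line is 1 array (cell line 1), which is assumed to vary like the other groups.

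Start sites are shown first because the TOP tract is the sequence feature that these genes share. Windows of 250 bases before and 50 after each annotated start (RefSeq, GRCh38.p14) were found for 48 of 55 genes, all but RPL3L, RPL7, RPL8, RPL30, RPL37, RPL39L and RPS15A. A tract was counted where the start base was C and at least 4 bases of C or T followed it on the gene's strand, at any annotated start of the gene. It was present in 33 of 48 genes (68.8%) and in 5.14% of 27305 genes with a window. Among the paralogs it was present in 1 of 6, RPL22L1, against 32 of the other 42 genes. Each line gives 15 bases before the start and 15 from it, 5′ to 3′, with the tract in capitals. The first 4 are the genes of smallest p in WJT against gliospheres, followed by 3 standard genes each with its paralog, and by 3 genes without a tract at the annotated start chosen after their values were seen (RPS28, RPS15 and RPL7L1).
RPS23, chr5:82278340-82278369, minus strand: tcctgcggtgcttctCTCTTTCgctcaggc
RPL35A, chr3:197950175-197950204, plus strand: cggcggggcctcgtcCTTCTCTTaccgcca
RPL18, chr19:48619164-48619193, minus strand: accccagcccgttctCTCTTTCCggacctg
RPS9, chr19:54200843-54200872, plus strand: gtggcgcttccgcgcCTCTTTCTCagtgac
RPL26, chr17:8383179-8383208, minus strand: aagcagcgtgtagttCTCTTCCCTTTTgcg
RPL26L1, chr5:172958714-172958743, plus strand: agtcttccaggggtcggcgaacgaaacgcg
RPL22, chr1:6199581-6199610, minus strand: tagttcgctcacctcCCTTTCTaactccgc
RPL22L1, chr3:170870181-170870210, minus strand: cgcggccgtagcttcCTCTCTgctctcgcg
RPS27, chr1:153990747-153990776, plus strand: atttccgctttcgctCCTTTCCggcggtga
RPS27L, chr15:63157463-63157492, minus strand: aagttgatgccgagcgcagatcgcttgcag
RPS28, chr19:8321481-8321510, plus strand: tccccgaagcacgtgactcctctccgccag
RPS15, chr19:1438381-1438410, plus strand: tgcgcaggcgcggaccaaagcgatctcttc
RPL7L1, chr6:42879601-42879630, plus strand: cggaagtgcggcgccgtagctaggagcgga

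RPS23, RPL18 and RPS9 share the run CTCTTTC at the start, and how many other genes carry it was not counted. RPL26 had a tract of 12 bases and its paralog RPL26L1 had none at its annotated starts. RPS27 had 7 bases of tract and RPS27L none. RPS28 has a run of C and T bases from the base after its printed start, and a tract within 5 bases of a start was found in 38 of 48 genes and in 25.2% of all genes. Over the whole window and on both strands, the 7 letters CCGGAAG, the core bound by ETS factors, were found in 16 of 48 genes (33.3%) and in 12.2% of all genes, and the 7 letters AAGATGG, the core bound by YY1, in 6 of 48 (12.5%) and in 7.11%; these motifs can overlap each other at AAG. A match is a description of the letters in the window.

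On the log2 scale of the arrays, the mean signal of the 55 genes over the 14 arrays ran from 2.72 for RPL10L to 17.27 for RPL26, with a median of 9.27. RPS15 (17.09) and RPS16 (16.77) came next to RPL26. Probes differ in brightness, so levels of different genes were not set against each other. Only RPL10L and RPL3L had means below 5 log2, and both are known for expression in testis or striated muscle; 29 genes lay between 5 and 10 and 24 above 10. The SD over the 14 arrays had a median of 0.32 log2 over these genes, against 0.22 over all clusters and 0.56 over the 3006 clusters above 10 log2. The widest spread was in RPS28 (SD 0.83), RPL36 (SD 0.79) and RPS18 (SD 0.67), and the narrowest in RPL3L (SD 0.089), RPL6 (SD 0.117) and RPL10L (SD 0.136). Many ribosomal protein genes have processed pseudogenes with near-identical sequence, and how far probes read these copies was not tested. For RPS18, whose clusters include copies on alternative haplotypes of chromosome 6, the brightest cluster and the standard one gave differences of -0.46 and -0.26 log2 for BMT minus gliospheres. The 2 clusters of RPL30 gave -0.58 and -0.19 for WJT minus gliospheres, and -0.33 and 0.15 for WJT minus BMT.

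The signals of these genes tended to shift together from array to array. The median over the 55 genes of the deviation from each gene's own mean was highest on cell line 2 (0.45 log2), negative spheres 1 (0.23), gliospheres 2 (0.20) and cell line 3 (0.19). It was lowest on WJT 2 (-0.37), WJT 3 (-0.27) and BMT 1 (-0.21). WJT 2 held the lowest value of 25 of the 55 genes, and cell line 2 the highest value of 22. Arrays within a group did not share a level: gliospheres 2 was above the gene's mean in 50 of 55 genes and gliospheres 3 in 17. The small and large subunits moved alike, with medians of -0.40 and -0.36 on WJT 2 and of 0.43 and 0.46 on cell line 2. Over all clusters, most of them dim, the median deviation ranged from -0.06 on WJT 2 to 0.10 on cell line 3. Over the clusters above 10 log2 it ranged from -0.17 on cell line 3 to 0.18 on gliospheres 2, where the members were at 0.20, and it was -0.10 on WJT 2 and 0.14 on cell line 2.

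**Figure D1:**
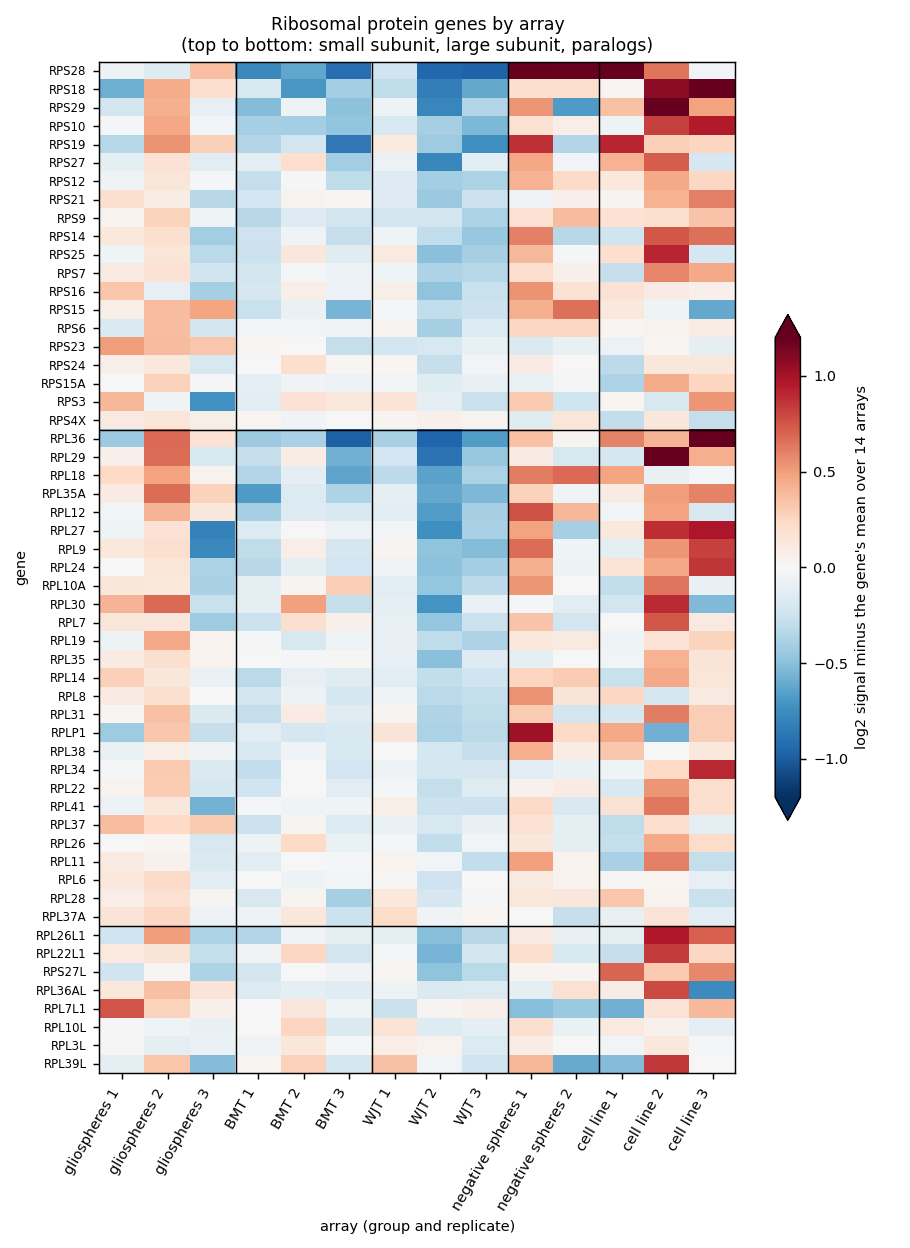
Deviation of each of the 55 genes (rows) from its own mean over 14 arrays (columns), in log2 units, with red above and blue below the mean and the end colours for values past the colour bar. Most rows are blue on WJT 2 and WJT 3 and red on cell line 2, and RPS28, RPS23 and RPL7L1 follow patterns of their own.

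Across the 1485 pairs of these genes the correlation over the 14 arrays had a median of 0.46, and 91.2% of pairs were above 0. After each group's mean was removed the median was 0.39, so arrays of the same group also differed along this line. The points share 14 arrays and their scaling, and the values are given as a description. RPS4X (median correlation with the others -0.10), RPL7L1 (0.08), RPS15 (0.14) and RPS23 (0.15) followed the other genes least. RPS23 was closest to RPL37 (0.74), and RPL7L1 to RPS23 (0.62).

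**Figure D2:**
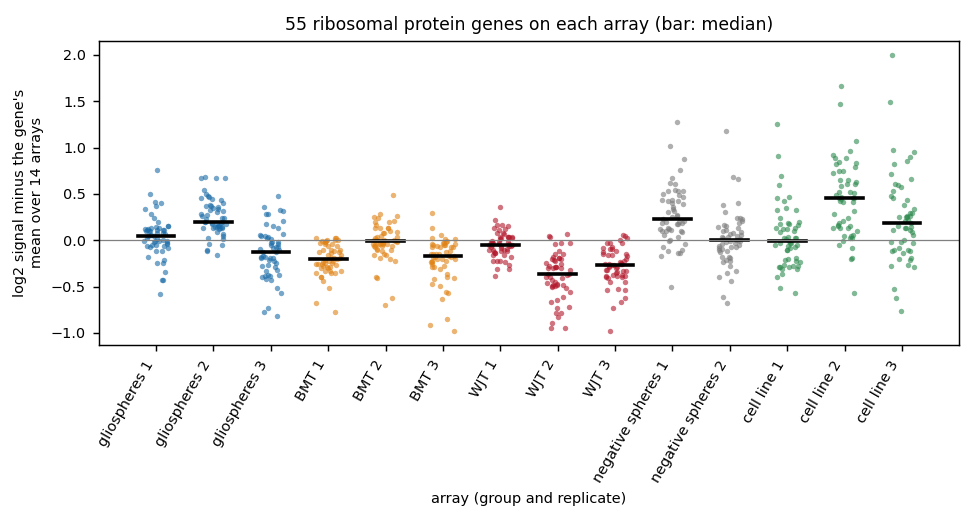
Deviation of the 55 genes from their own means on each of the 14 arrays, in log2 units, with 1 point for each gene and a black bar at the median. WJT 2 has the lowest median (-0.37) and cell line 2 the highest (0.45), and the 3 gliosphere arrays lie at 0.05, 0.20 and -0.13.

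WJT had the lowest group mean in 39 of the 55 genes and the highest in none, and the cell line had the highest in 28 and negative spheres in 18. Over all clusters WJT was lowest in 25.9% and the cell line highest in 37.3%. This order is a description of group means, and most neighbours in it did not differ beyond the spread of their arrays.

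The first question was whether CM of bone marrow cells changed these genes in gliospheres. In BMT 42 of 55 genes had a lower mean than in untreated gliospheres, against 43.5% of all clusters, and the median difference was -0.15 log2 (all clusters 0.03). None of the 55 passed limma's test at an adjusted p below 0.05 in either direction, where 0.00148% of all clusters were called higher and 0.00592% lower. At a nominal p (unadjusted, up to 0.05) 8 genes were lower (14.5%) and 0 were higher, against 4.04% and 4.59% of all clusters. The 3 BMT arrays lay below all 3 gliosphere arrays for 15 genes (27.3%; 7.33% of all clusters) and above them for 0 (11.2%). Clusters above 10 log2 also leaned this way, with 7.02% lower at a nominal p, 13.3% below without overlap and a median difference of -0.03. In RNA of whole cultures, fewer cells of a type and less RNA per cell cannot be told apart.

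The largest BMT differences were in RPS28 of the small subunit (-0.82 ± 0.30 log2, SE), RPL35A of the large subunit (-0.75 ± 0.21) and RPL36 (-0.74 ± 0.40). RPS19 (-0.63 ± 0.36), RPL18 (-0.62 ± 0.18) and RPS15 (-0.61 ± 0.20) came next. RPS28, RPL35A, RPS19, RPL18 and RPS10 (-0.57 ± 0.23) are genes whose loss on 1 allele is known from the inherited anaemia named after Diamond and Blackfan. RPL36 and RPS19 had overlapping groups. The adjusted p of these 7 genes ran from 0.375 to 0.664. The largest value of the other sign was 0.18 ± 0.28 in RPS3, followed by RPL27 (0.15), RPL39L (0.13), RPL41 (0.13), RPL10A (0.12) and RPS27L (0.11), all with overlapping groups. Without gliospheres 3 the values of RPS3, RPL27, RPL39L, RPL41 and RPL10A were between -0.14 and -0.06.

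In WJT, gliospheres kept in CM of Wharton's jelly cells, 50 of 55 genes had a lower mean than in untreated gliospheres, against 53% of all clusters, and the median difference was -0.27 log2 (all clusters -0.01). Again 0 of 55 passed the adjusted threshold, as did 0 of all 67528 clusters (0%). At a nominal p 13 genes were lower (23.6%; 3.57% of all clusters) and 0 higher (2.52%). The WJT arrays lay below all gliosphere arrays for 19 genes (34.5%; 8.43% of all clusters) and above them for 0 (7.15%). Among clusters above 10 log2 these shares were 6.95% lower and 12.3% below without overlap, with a median of -0.06. The 3 gliosphere arrays enter both treated comparisons, so the 2 sets of differences are not independent.

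RPL36 (-0.80 ± 0.40 log2, SE), RPL35A (-0.77 ± 0.21), RPS28 (-0.77 ± 0.30), RPL29 (-0.70 ± 0.41), RPL18 (-0.70 ± 0.18) and RPS18 (-0.61 ± 0.35) had the largest WJT differences, with adjusted p between 0.432 and 0.919. Smaller differences were seen in RPL12 (-0.57 ± 0.20), RPL19 (-0.40 ± 0.14), RPL35 (-0.36 ± 0.13), RPS12 (-0.35 ± 0.12) and RPL8 (-0.32 ± 0.14), whose groups did not overlap. Only 5 genes had a WJT mean above that of gliospheres. RPL39L had the highest of these at 0.13 ± 0.36, and RPS3 (0.05) and RPL41 (0.02) were within 0.05 of 0; the other 2 were the dim genes RPL10L and RPL3L.

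**Figure D3:**
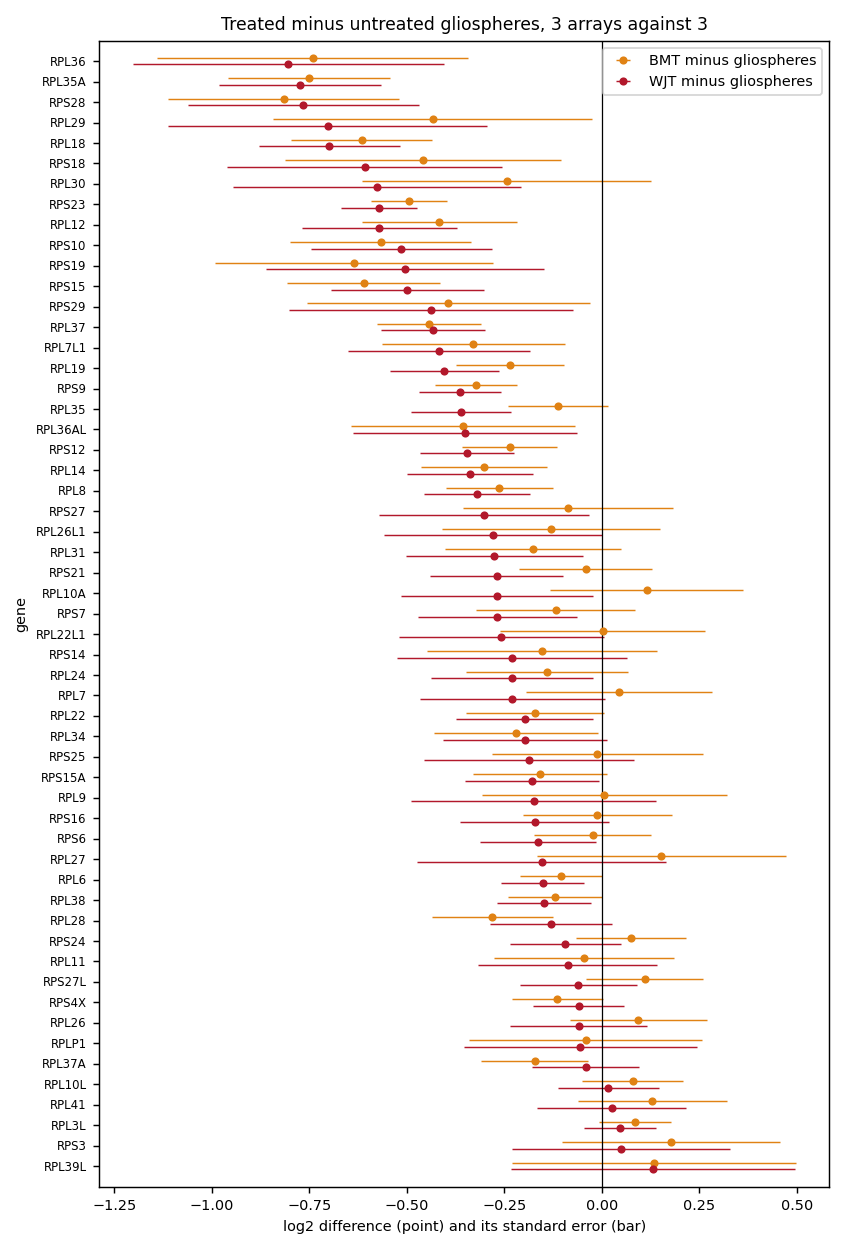
Log2 difference of BMT (orange) and WJT (red) from untreated gliospheres for each of the 55 genes, with bars of 1 standard error from limma. Points lie left of 0 for 42 genes in BMT and for 50 in WJT, and none passed the adjusted threshold.

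RPS23, a small subunit protein at the decoding centre, set untreated gliospheres apart from every other array. Its signals were 9.23, 9.10 and 9.06 log2 in gliospheres, 8.74, 8.72 and 8.43 in BMT, and 8.50, 8.53 and 8.64 in WJT. They were 8.55 and 8.63 in negative spheres and 8.65, 8.75 and 8.61 in the cell line. All 3 gliosphere arrays were thus above all 11 others, and the treated groups were near the control arrays. The difference was -0.49 ± 0.10 log2 in BMT (SE, adjusted p = 0.21) and -0.57 ± 0.10 in WJT (adjusted p = 0.165; range over alternatives 0.0397 to 0.615). Against control it was 0.49 ± 0.09, the only member that passed in any of the 7 comparisons (adjusted p = 0.0299). That call was lost without any of 6 arrays (gliospheres 1, 2 or 3, negative spheres 1 or 2, or cell line 1), with adjusted p between 0.0509 and 0.0966.

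RPL35A, RPL18, RPL37, RPS9, RPS15, RPS10 and RPS28 also lay lower in both treated groups without overlap. So did RPL8, RPL12, RPL14, RPL35, RPL36AL, RPS4X and RPS15A. With RPS23, these make up the 15 genes below without overlap in BMT. RPL35A was 6.13, 6.71 and 6.32 log2 in gliospheres, 5.36, 5.88 and 5.67 in BMT, and 5.92, 5.42 and 5.50 in WJT. The control arrays (6.00 to 6.64) covered much the same range as gliospheres. RPL18 was 8.66, 8.90 and 8.47 in gliospheres, 8.08, 8.32 and 7.79 in BMT, and 8.11, 7.78 and 8.04 in WJT. Its 2 negative sphere arrays, at 9.04 and 9.11, were above all gliospheres. RPL37 was 7.40, 7.27 and 7.35 in gliospheres, 6.77, 7.06 and 6.86 in BMT, and 6.95, 6.84 and 6.94 in WJT (differences -0.44 ± 0.13 and -0.43 ± 0.13). Like RPS23 it was above every control array, the highest of which was at 7.24. RPS9 was 6.26, 6.49 and 6.17 in gliospheres, 5.89, 6.07 and 6.00 in BMT, and 6.00, 6.00 and 5.84 in WJT (-0.32 ± 0.10 and -0.36 ± 0.10). For RPS15 the differences were -0.61 ± 0.20 and -0.50 ± 0.20, and for RPS10 -0.57 ± 0.23 and -0.51 ± 0.23.

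The size of the lean in both treated groups depended on single arrays and on the scaling. Without gliospheres 2 the median was -0.04 log2 in BMT and -0.18 in WJT, and without gliospheres 3 it was -0.29 and -0.40, with 51 and 54 genes below 0. Quantile normalization of the deposited values brought it to -0.035 in BMT (31 genes below 0) and -0.115 in WJT (41 genes), with 4 and 5 genes lower at a nominal p. Centring on the clusters above 10 log2 moved the median of all clusters from 0.03 to 0.15 in BMT and left the members at -0.035 there, and at -0.17 in WJT with all clusters at 0.08. Centring shifts all clusters of an array alike, so it cannot move the members against all clusters. Quantile normalization can, and with it the members' median stayed below that of all clusters (0.01 in each comparison) by less than as deposited.

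**Figure D4:**
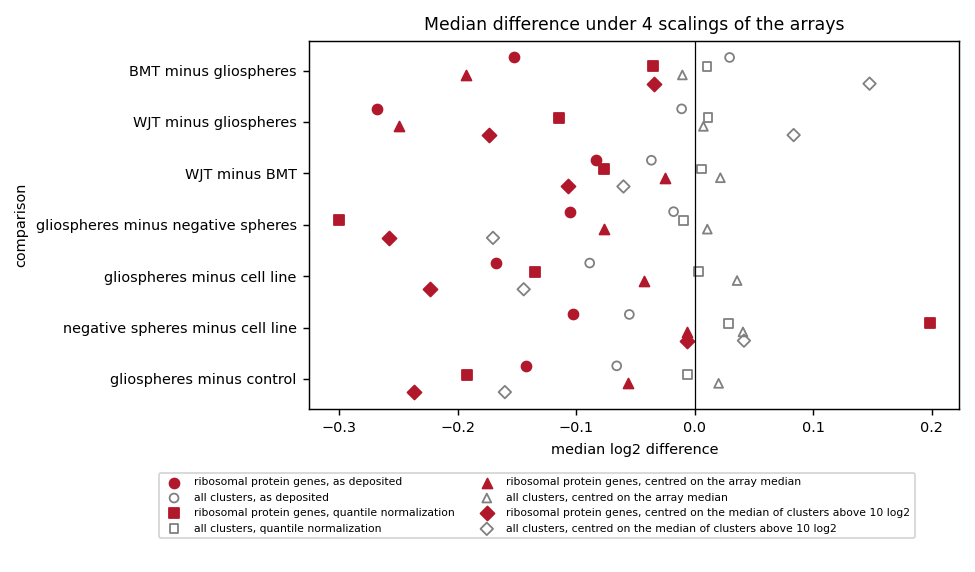
Median log2 difference of the 55 genes (red) and of all clusters (grey, open) in each comparison under 4 scalings of the arrays, marked by shape. The red points lie left of 0 for both treated groups, the distance from red to grey is the same by construction under both centrings and as deposited, and negative spheres minus cell line runs from -0.10 to 0.20.

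Both conditioned media were also compared with each other. In WJT 45 of 55 genes had a lower mean than in BMT (60.9% of all clusters), with a median of -0.08 log2 (all clusters -0.04). None passed at an adjusted p (0% of clusters in either direction) or at a nominal p, where 2.05% of clusters were lower and 0.943% higher. The groups did not overlap for RPL10A (-0.38 ± 0.25), RPL35 and, in the other direction, RPS4X (0.05 ± 0.12), or 2 of 55 lower (9.22% of clusters) and 1 higher (4.78%), and both shares are below the background. Other large values were RPL30 (-0.33), RPL27 (-0.31), RPL7 (-0.27), RPL29 (-0.27) and RPL22L1 (-0.26), and in the other direction RPL28 (0.15), RPL37A (0.13), RPS19 (0.13), RPS15 (0.11) and RPS10 (0.05). Leaving out WJT 1 moved the median to -0.19, and leaving out WJT 2 or BMT 2 moved it to -0.03.

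Untreated gliospheres were next compared with negative spheres, which came from the other fraction of the CD133 sort. In the paper, the fraction without CD133 lost the ability to form spheres after a few passages and became the control. The sort and growth as spheres thus cannot be told apart here. The means of 38 of 55 genes were lower in gliospheres (54.1% of clusters), with a median of -0.11 log2. None passed at an adjusted p (0.0948% of clusters higher, 0.0503% lower). At a nominal p 2 were higher and 2 lower (4.14% and 4.04% of clusters), close to the share of all clusters. Among clusters above 10 log2 these shares were 10.0% and 5.76%, with a median of 0.09 and 43.3% lower in mean. The median changed sign, to 0.02 without gliospheres 3 and to 0.01 without negative spheres 1. RPS23 and RPL7L1 were the higher genes, and RPS28 and RPLP1 the lower. The groups did not overlap for 4 higher genes (RPL35, RPL37, RPL7L1 and RPS23; 11.1% of clusters) and 5 lower (RPL18, RPL38, RPS12, RPS27L and RPS28; 13.2%). Quantile normalization moved the median to -0.30, with 15 genes lower at a nominal p.

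RPS28 had the largest difference of any member, and its gliosphere arrays lay between the treated and the negative sphere arrays. It was 13.93, 13.84 and 14.36 log2 in gliospheres, 13.23, 13.38 and 13.09 in BMT, and 13.76, 13.05 and 13.02 in WJT. It was 15.27 and 15.18 in negative spheres and 15.25, 14.64 and 13.96 in the cell line. Negative spheres were thus above every gliosphere, BMT and WJT array, while the cell line arrays spread over most of that range. Gliospheres minus negative spheres was -1.18 ± 0.33 (SE, adjusted p = 0.284), the only member at a nominal p with a fold of at least 2 here (0.591% of clusters lower, 1.29% higher); against control no member met both (0.524% and 1.11%). Without gliospheres 3, cell line 2 and cell line 3 it was -1.34 (adjusted p = 0.0339), and against control it was -0.82 ± 0.29 with all arrays (adjusted p = 0.301) and -1.35 without those 3 (adjusted p = 0.0125). Leaving out cell line 3 alone gave -1.04 against control (adjusted p = 0.0493). Over all alternatives the adjusted p of RPS28 reached 0.895 against negative spheres and 0.645 against control. For this gene gliospheres 3 was the highest gliosphere array, and cell line 2 and cell line 3 were the lowest control arrays.

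RPL7L1, a paralog of RPL7, had its highest mean in gliospheres. It was 8.24, 7.76 and 7.55 log2 in gliospheres and 6.98 and 7.05 in negative spheres, a difference of 0.83 ± 0.26 (adjusted p = 0.354). BMT was at 7.49, 7.63 and 7.44 and WJT at 7.22, 7.52 and 7.55. The cell line was split, at 6.92, 7.64 and 7.88, and overlapped gliospheres. Gliospheres 3 was the lowest gliosphere array, and cell line 2 and cell line 3 were the highest control arrays. Leaving these out, a set chosen after the data were seen, thus widens the differences by construction. Without gliospheres 3, cell line 2 and cell line 3 the differences from negative spheres (0.99) and control (1.02) passed, with adjusted p of 0.0365 and 0.0128. The difference from the cell line was then 1.08, against cell line 1 alone. Over all alternatives the adjusted p of RPL7L1 reached 0.975 against negative spheres and 0.743 against control. RPLP1 (-0.04 in BMT and -0.06 in WJT against gliospheres), an acidic protein of the stalk that recruits elongation factors, was 8.39, 9.14 and 8.54 in gliospheres and 9.84 and 9.05 in negative spheres (-0.76 ± 0.33, adjusted p = 0.593), and these groups overlapped. Other named values against negative spheres were RPL9 (-0.46), RPL12 (-0.41), RPS16 (-0.41) and RPL18 (-0.40), and RPL30 (0.34), RPL37 (0.28), RPL37A (0.25) and RPL35A (0.23), none past the threshold.

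**Figure D5:**
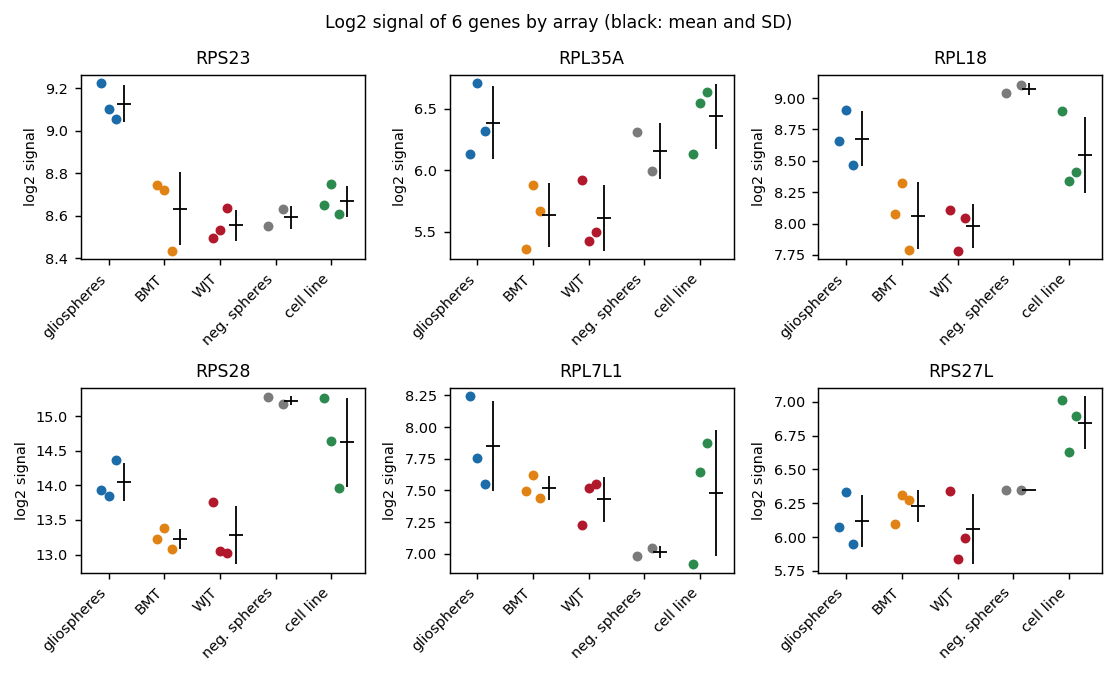
Log2 signal of RPS23, RPL35A, RPL18, RPS28, RPL7L1 and RPS27L on each array by group, with the mean and SD in black (n = 3, or 2 for negative spheres). RPS23 is above 9 on the 3 gliosphere arrays alone, and RPS27L is highest on the 3 cell line arrays.

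Against the parental cell line, 38 of 55 genes had a lower mean in gliospheres (68.4% of clusters) with a median of -0.17 log2 (all clusters -0.09). The sort, serum and growth as a monolayer or as spheres differ together here and cannot be told apart. Of clusters above 10 log2, 49.2% had a lower mean, with a median of 0.01. None passed at an adjusted p (0.241% of clusters higher, 0.101% lower), and 3 were higher and 5 lower at a nominal p (4.81% and 7.06% of clusters). The groups did not overlap for 2 higher genes (RPL37 and RPS23; 4.21% of clusters) and 3 lower (RPL24, RPL41 and RPS27L; 10.2%). Leaving out gliospheres 3 brought the median to -0.05 and leaving out cell line 1 to -0.26. Without gliospheres 3, cell line 2 and cell line 3 it was 0.16, with 21 genes below 0, a comparison of gliospheres 1 and 2 with cell line 1 alone.

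RPS27L, a paralog of RPS27 that is known as a p53 target gene, was lowest in gliospheres and WJT. It was 7.01, 6.63 and 6.89 log2 in the cell line, 6.35 and 6.35 in negative spheres, and 6.08, 6.33 and 5.95 in gliospheres. The cell line arrays were above all 11 others. Gliospheres minus cell line was -0.73 ± 0.15 (SE, adjusted p = 0.084), and the adjusted p was 0.0447 when only clusters with 1 symbol were tested. RPS23 (0.46 ± 0.10, adjusted p = 0.0944) likewise passed in that smaller set (adjusted p = 0.0435). RPL27 (-0.89 ± 0.32), RPL36 (-0.86 ± 0.40), RPS18 (-0.84 ± 0.35), RPS29 (-0.73 ± 0.36), RPL24 (-0.58 ± 0.21) and RPL41 (-0.51 ± 0.19) had lower means in gliospheres. RPS15 (0.49 ± 0.20), RPL37 (0.38 ± 0.13), RPL7L1 (0.37 ± 0.23), RPS4X (0.26 ± 0.12) and RPL30 (0.23 ± 0.37) had higher means. None of these passed, and the 6 with lower means had their highest values on cell line 2 or 3, as with RPL36 at 13.99 on cell line 3.

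Against the pooled control of 5 arrays, 41 of 55 genes had a lower mean in gliospheres (66.1% of clusters), with a median of -0.14 log2 (all clusters -0.07). The cell line arrays of this control also differ from gliospheres in serum and in growth as a monolayer. Of clusters above 10 log2, 45.7% had a lower mean, with a median of 0.06. RPS23 alone passed, or 1 of 55 higher and 0 lower, where 0.429% of clusters were higher and 0.139% lower. At a nominal p 3 genes were higher (5.24% of clusters) and 4 lower (5.66%), close to the share of all clusters (10.8% and 6.62% of those above 10 log2). The 3 were RPS23, RPL37 (0.34 ± 0.12) and RPL7L1 (0.56 ± 0.23), and the 4 were RPS28, RPS27L (-0.53 ± 0.17), RPL24 (-0.45 ± 0.19) and RPS12 (-0.27 ± 0.10). Non-overlap was seen for 2 higher genes (RPL37 and RPS23; 2.46% of clusters) and 1 lower (RPS27L; 4.05%). Other named values were RPL27 (-0.65), RPS18 (-0.58), RPL36 (-0.54) and RPL9 (-0.52), and RPL30 (0.27), RPS15 (0.20) and RPS4X (0.20). The median was -0.25 without gliospheres 2, -0.03 without gliospheres 3, and 0.09 without gliospheres 3, cell line 2 and cell line 3.

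Negative spheres and cell line, the 2 kinds of control, were also set against each other. The means of 33 of 55 genes were lower in negative spheres (61.9% of clusters), with a median of -0.10 log2, and 0 passed (0% of clusters). At a nominal p RPS15 (0.72 ± 0.22), RPL18 (0.52 ± 0.20) and RPL12 (0.49 ± 0.22) were higher (2.14% of clusters) and RPS27L (-0.50 ± 0.17) was lower (4.57%). RPS15, a small subunit protein, was 17.51 and 17.75 in negative spheres and 17.21, 17.04 and 16.47 in the cell line. Other named values were RPS29 (-0.84), RPL36 (-0.81), RPL29 (-0.68), RPS18 (-0.66), RPL27 (-0.62) and RPL26L1 (-0.51), and RPS28 (0.60), RPLP1 (0.57) and RPL8 (0.30). Non-overlap was seen for 4 higher genes (RPL18, RPL6, RPS15 and RPS6; 5.39% of clusters) and 3 lower (RPL34, RPL36 and RPS27L; 10.8%). Quantile normalization turned the median to 0.20, leaving out negative spheres 2 turned it to 0.05, and leaving out cell line 2 turned it to 0.04.

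The 8 paralogs did not follow a common direction. Their median was 0.04 log2 in BMT and -0.16 in WJT against gliospheres, with 3 and 5 of 8 below 0 and 0 at a nominal p. RPL7L1 (-0.33 and -0.42) and RPL36AL (-0.36 and -0.35) were lower in both treated groups, while RPL39L was above gliospheres by 0.13 in each, within its standard error. RPL22L1, a paralog of RPL22, was 0.00 in BMT and -0.26 in WJT, and RPL26L1 was -0.13 and -0.28. RPL10L and RPL3L were too dim for a direction. The 33 genes with a tract at the start had a median of -0.17 in BMT and -0.26 in WJT, and the 15 genes without one had -0.12 and -0.27. Of these, 28 of 33 and 10 of 15 were below 0 in BMT, and 31 of 33 and 14 of 15 in WJT; the difference was not tested. The 20 small subunit members had medians of -0.16 and -0.29, and the 27 large subunit members -0.17 and -0.23.

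Other genes of the translation machinery were taken from lists. The 21 ribosomal protein genes on clusters with several symbols had medians of -0.18 log2 in BMT and -0.22 in WJT, with 3 and 5 lower and 0 higher at a nominal p and 0 called. Over all clusters, here and for the lists below, 4.04% were lower and 4.59% higher in BMT, and 3.57% and 2.52% in WJT. RPS2 of the small subunit was lower without overlap in both (-0.49 ± 0.14 and -0.44 ± 0.14). RPLP2 of the stalk was also lower without overlap in both, at 11.76, 12.00 and 11.91 log2 in gliospheres. It was 11.60, 11.27 and 11.38 in BMT and 11.70, 11.51 and 11.20 in WJT. RPL10, RPL13 and RPL13A, named after their values were seen, lay lower without overlap in both as well. Of all clusters, 7.33% lay below gliospheres without overlap in BMT and 8.43% in WJT. FAU, which encodes a ubiquitin-like protein fused to a ribosomal protein, was at -0.46 ± 0.19 and -0.56 ± 0.19. Of 20 genes for the anaemia named above, 16 had a cluster of 1 symbol, all of them members already counted above. Of these, 4 were lower in BMT and 5 in WJT at a nominal p, with 0 higher. RPS26 and RPL5 of that list were measured on clusters with several symbols. RPL11, which binds the p53 inhibitor MDM2 as part of the 5S particle, was at -0.05 and -0.09. RPL5 of the same particle overlapped gliospheres in both treated groups. MDM4, another p53 inhibitor, was at -0.41 ± 0.13 and -0.33 ± 0.13, and against control at 0.52 ± 0.11 (adjusted p = 0.0703).

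Elongation factors and other mRNAs known for TOP tracts (14 of 20 measured) had a median of -0.12 log2 in both BMT and WJT, with 2 lower and 0 higher in each at a nominal p. These were EEF1D, an exchange factor for elongation factor 1 (-0.65 ± 0.17 and -0.48 ± 0.17), and EIF3L, a subunit of initiation factor 3 (-0.60 ± 0.18 and -0.64 ± 0.18). Initiation factors (24 of 29 measured) had medians of -0.11 and -0.16, with EIF6, which keeps the subunits apart, at -0.76 ± 0.27 and -0.92 ± 0.27. Regulators of mTORC1 and of TOP mRNAs (19 of 20 measured) had medians of -0.17 and -0.04, with TSC1, an inhibitor of mTORC1, at -0.83 ± 0.20 and -0.60 ± 0.20. Chaperones of ribosomal proteins (14 of 14 measured) had medians of -0.15 and -0.10, with 1 higher and 1 lower in each. None of the genes in these lists passed in BMT or WJT with all arrays, and EIF3L passed in WJT without gliospheres 3, cell line 2 and cell line 3 (adjusted p = 0.0378).

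Against control, EIF4B passed from the list of elongation factors and other TOP mRNAs, and RPS6KB1 from the list of mTORC1 regulators. The sizes of these lists are given above, and 0.429% of all clusters were called higher against control and 0.139% lower. EIF4B, a helper of the mRNA helicase, was 13.76, 13.10 and 13.74 log2 in gliospheres and between 11.86 and 12.97 in the 5 control arrays (1.14 ± 0.22, SE, adjusted p = 0.049; range over alternatives 0.021 to 0.328). RPS6KB1, the kinase that phosphorylates RPS6, was 8.82, 8.49 and 8.58 in gliospheres and between 7.58 and 8.28 in control (0.72 ± 0.14, adjusted p = 0.0476; range 0.0124 to 0.35). Gliosphere arrays were above all control arrays for both genes. With the replicate number as a block neither passed (adjusted p = 0.0761 for EIF4B and 0.0627 for RPS6KB1). Leaving out any of the 3 gliosphere arrays, negative spheres 1 or cell line 1 ended both calls, as did cell line 2 for EIF4B and negative spheres 2 for RPS6KB1. RPS6 itself, the small subunit protein that this kinase targets, was 5.65, 6.19 and 5.60 in gliospheres and between 5.85 and 6.07 in control.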

How the data were processed

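RNA of 14 samples of U87MG cells was measured on the Human Transcriptome Array 2.0. The deposited log2 values were made by the authors in the Transcriptome Analysis Console (a robust multi-array average after a transformation of the signal space), per the methods. Of 70523 features 2995 other probe sets were left out, and 42204 of the remaining clusters have no symbol. The values are not counts, so precision is set by how many arrays there were. Comparisons used limma 3.58.1 in R 4.3.3 (group means, empirical Bayes variances, prior degrees of freedom 1.98) over all 67528 clusters, with Benjamini-Hochberg adjustment and a threshold of 0.05. There were 6 comparisons from a fit of 5 groups and the comparison with control from a fit of 4 groups. Standard errors are limma's. The fit was tested on simulated data. Genes named are the 6 highest and 6 lowest differences per comparison, genes that passed, paralogs, stalk, 5S particle and ubiquitin fusion genes, up to 4 of smallest p from other lists, and the extremes of level and spread. RPL37, RPS9, RPL19, RPL35, RPS12, RPL6, RPL38, RPL34, RPS6, RPL14, RPS15A, RPL10, RPL13 and RPL13A were named after their values were seen. The members and gene lists were chosen with earlier results of these data known. Start sites were read from RefSeq (GRCh38.p14). Alternatives tried were the groups in the fit, the prior, the filter on dim clusters, clusters with 1 symbol, scaling, array weights, a replicate block, the mean over clusters and each array left out; arrays of gliospheres and cell line with the same replicate number deviated together (correlations 0.28, 0.32 and 0.40), which the labels do not explain, and leaving out 3 arrays together was chosen after seeing the data. Figures used Python 3.11.15 and matplotlib 3.10.9.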

Additional observations from a re-analysis of the deposited data

Results flagged for a closer look

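In the 5 control arrays 2 of the 55 genes had an array far from the others. For RPL36 the gap between cell line 3 (13.99 log2) and the next array made up 0.715 of the range of the 5 arrays, which lay between 12.02 and 12.58 otherwise. For RPS16 the gap of negative spheres 1 (17.30) made up 0.753 of the range, the other 4 arrays lying between 16.83 and 16.95. The critical value for 5 arrays is 0.71. Chance flags about 1 in 20 groups, and over all clusters 11.7% were flagged, so 3.64% of the members is below the background. Groups of 2 and 3 arrays were not tested.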

How the results depend on the processing

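For the ribosomal protein genes both treated comparisons gave 0 calls under each alternative, except that array weights called 1 gene, RPS23, lower in WJT. Without gliospheres 3, cell line 2 and cell line 3, gliospheres minus negative spheres had 1 gene higher and 1 lower, gliospheres minus cell line 1 and 1 (median 0.16 log2; cell line 1 alone, with the spread of the other groups), and gliospheres minus control 2 and 1 (median 0.095). For RPL7L1 and RPS28 the arrays left out were those nearest the other group, so their differences widened by construction. Clusters with 1 symbol gave 1 higher and 1 lower against the cell line. The call of RPS23 against control fell to 0 genes with only the compared groups, an intensity trend with a robust prior, clusters of at least 5 log2, quantile normalization and both centrings. At a nominal p with a fold of at least 2, 1 gene was counted against negative spheres and 0 against control. Quantile normalization gave medians of -0.30 for gliospheres minus negative spheres and 0.20 for negative spheres minus cell line. The cause was not tested.

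Leaving out 1 array gave 0 to 1 genes higher and 0 to 1 lower against control, and medians of -0.19 to -0.027 for WJT minus BMT. In BMT minus gliospheres the range was -0.060 to 0.21 for RPL10A, -0.0695 to 0.28 for RPL41, -0.075 to 0.35 for RPL39L, -0.14 to 0.36 for RPL27 and -0.13 to 0.44 for RPS3, the lowest also being the value without the 3 arrays. In WJT it was -0.17 to 0.18 for RPL41, -0.25 to 0.31 for RPS3 and -0.078 to 0.35 for RPL39L, likewise, and array weights gave -0.10, -0.081 and -0.026. For WJT minus BMT it was -0.019 to 0.22 for RPS15, -0.10 to 0.32 for RPS19 and -0.042 to 0.14 for RPS10, and for gliospheres minus cell line -0.062 to 0.65 for RPL30. Without the 3 arrays, negative spheres minus cell line 1 alone was 0.16 for RPL29, 0.18 for RPS18, 0.12 for RPL26L1 and -0.030 for RPS28, and gliospheres minus control was -0.17 for RPS15.

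Over 26 pairs of arrays with the same replicate number the correlation of deviations ran from -0.30 to 0.40, and 11 were above 0.1. In the comparisons made, every pair was above 0.1 only between gliospheres and cell line. With a replicate block 1 member was called against control (RPS23, adjusted p = 0.049995) and 0 in the other comparisons, as without it. Among genes of the lists, the block ended the calls of EIF4B and RPS6KB1. The 2 or 3 arrays a group limit the precision.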
